A study of Mus musculus with 35 samples.

Results

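The pancreatic lymph node of NOD mice was compared between 20 weeks and 10 days of age in the NOD channel of 2-colour oligonucleotide arrays. The members were the 12 arrays whose titles named pancreatic lymph node at these 2 ages, 7 at 10 days and 5 at 20 weeks, of 35 arrays in all. NOD is an inbred strain that develops autoimmune diabetes; the animals were female, without any added allele or treatment, and the labels gave every NOD sample the disease state diabetic, the 10-day samples included. Their RNA was labelled with Cy3, and RNA of female NOD.B10 mice, the related control strain that carries another MHC haplotype, was labelled with Cy5 on the same arrays. The control RNA came from 2 groups of 10 mice, aged 10 days and 20 weeks, and the labels do not tell which of them lay on which array. The other 23 NOD arrays, at 4, 8, 12 and 16 weeks, entered the model for its estimate of spread and are quoted as levels only. Beside the genes the rule names, Tnfrsf17, Mzb1, Dntt, Rag2, H2-Ea, H2-Oa, Ctss, Ctsl, Ifit1, C1qc, Cd68, Csf1r, Adgre1, Adipoq, Lep, Sparc, Dcn, Igf1, Cdh5 and the Y-linked genes are named as list members chosen after their values were seen. No label says whether arrays of the same age are of different animals, so the p-values cover only the array-to-array spread, possibly a technical one.

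The pancreatic lymph node drains the pancreas and is where T cells first meet islet antigens in NOD mice. After birth a lymph node fills with recirculating lymphocytes that enter through high endothelial venules, its follicular dendritic cells and B cell follicles mature, and plasma cells appear as the animal meets gut and skin microbes. Over the same period the fetal growth programme, led by imprinted genes such as Igf2, is switched off across tissues and connective tissue slows its matrix production.

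Levels are log2 Cy3 intensities after quantile normalisation over all 35 arrays, and differences are 20 weeks minus 10 days on that scale, so 1 is a doubling. A gene was called when limma's adjusted p (Benjamini-Hochberg over all genes) was under 0.05, and it was represented by its brightest probe. Several technical features divided the ages. All 7 arrays at 10 days were read with Feature Extraction 8.1.1.1 on 1 scan day, and all 5 at 20 weeks with 8.5.1.1 on another, so within these 12 arrays age cannot be told apart from version or scan day. Both versions occur together only at 8 weeks (3 arrays and 1) and 12 weeks (1 array and 6), so a term for version rests on 1 odd array at each of these ages. No scan day of the 35 arrays holds both versions, so version and scan day cannot be told apart, and the version term is also a term for groups of scan days. The share of probes well above background was 80.3% to 93.5% per array at 10 days and 47.1% to 60.1% at 20 weeks. Correlations over 26728 genes were 0.885 to 0.982 among 10-day arrays, 0.900 to 0.956 among 20-week arrays and 0.810 to 0.896 between the ages. RNA of the exocrine pancreas was also far higher on every 20-week array, as given below.

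Of 26728 genes tested, 9687 (36.2%) were called, 4788 higher (17.9%) and 4899 lower (18.3%) at 20 weeks. A gene was tested if well above background on at least 4 of the 12 arrays, so it could enter through either age alone. Of the lower genes 944 were not well above background on any 20-week array, and of the higher genes 0 on any 10-day array. The shares lower, over all genes and in lists, include such genes. A difference of at least 1 was called for 2699 higher genes (10.1%) and 3517 lower genes (13.2%), and the ages did not overlap for 5983 genes (22.4%), 3233 higher (12.1%) and 2750 lower (10.3%). When the model also held a term for the Feature Extraction version, 1145 genes were called, and 327 of the 4788 higher and 543 of the 4899 lower genes kept their call and direction. With scan day as a random block (correlation of arrays of 1 scan day 0.418), 177 genes were called, 82 higher and 95 lower. The scan day of the 10-day arrays held no other age. The block therefore widens the error of a difference but cannot remove a scan day effect from it. A call said to hold with scan day passed with that wider error only. These 2 models end most calls, so the number of calls kept with the version term is given with the gene groups. Those numbers are to be read against the 327 of 4788 and 543 of 4899 kept over all genes. Shares of list members called are to be read against the 17.9% higher and 18.3% lower over all genes. Requiring a probe to be well above background on all 12 arrays gave 3799 higher and 2348 lower calls, a share of higher calls of 61.8% against 49.4%. The median difference over all genes was -0.0021 after quantile normalisation and -0.05 after scaling each array to its 75th percentile.

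**Figure D1:**
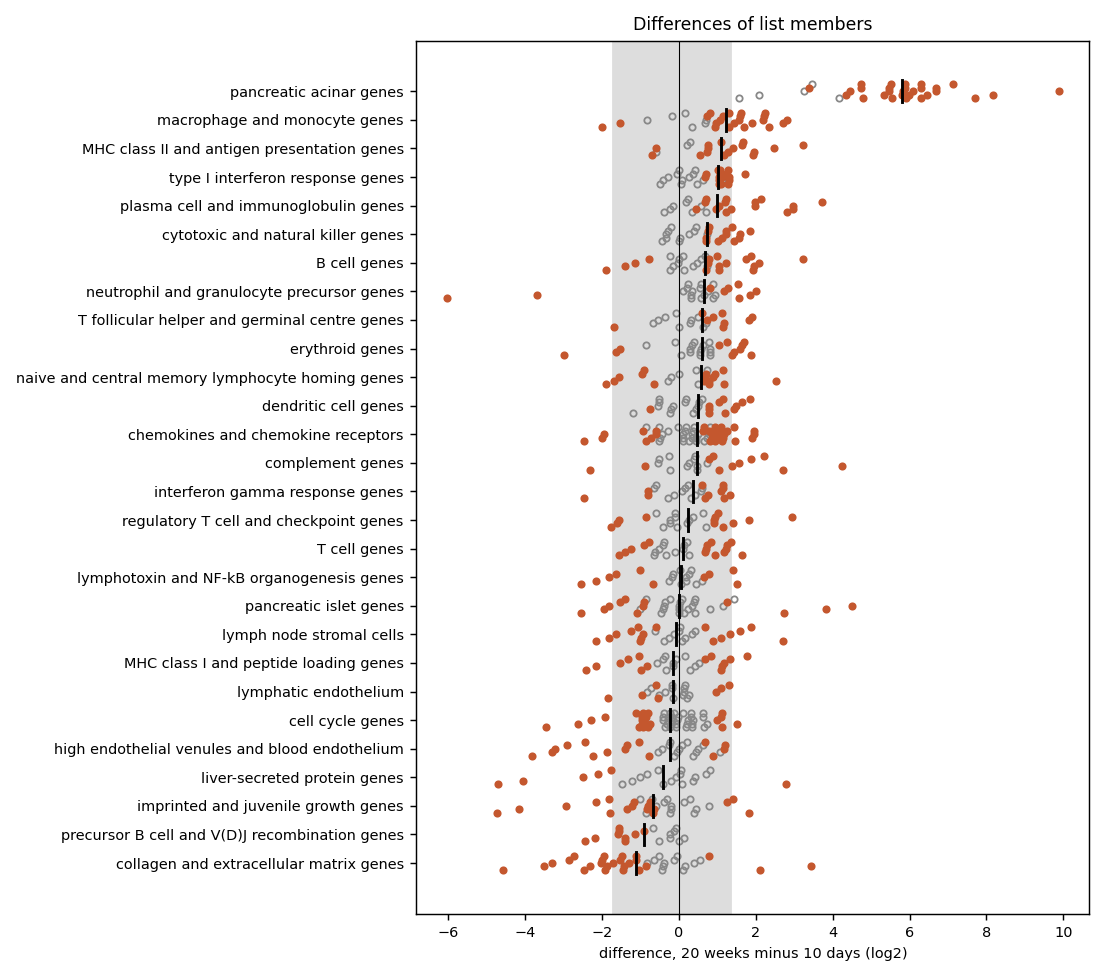
Differences in the NOD channel, 20 weeks minus 10 days on the log2 scale, for the members of 28 gene lists; each point is a gene, filled where it was called by limma at an adjusted p under 0.05 without a version term, and the bar is the list's median. The grey band spans the 5th to the 95th percentile of all 26728 genes (-1.73 to 1.34), and most acinar genes lie beyond its right edge while collagen genes lie mostly to the left of 0.

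Genes of antibody-secreting cells were higher at 20 weeks: 16 of 24 measured members of the plasma cell list were called higher and none lower, against 17.9% higher over all genes, with a median difference of 1.0 against -0.0021 over all genes. Jchain, which links IgA and IgM into polymers, had levels of 10.39, 11.55 and 12.60 (lowest, median and highest of 7 arrays) at 10 days. On the 5 arrays at 20 weeks it had 15.09, 15.68, 15.05, 15.50 and 15.50. Every 20-week array thus lay above every 10-day array, and the means of 11.64 ± 0.74 (SD, n = 7) and 15.36 ± 0.28 (SD, n = 5) differed by 3.73 ± 0.31 (SE), 13.3-fold (limma, adjusted p = 4.02e-10). The call held with the version term (3.12, adjusted p = 0.00059) and with scan day as a block (adjusted p = 0.00474). At the ages between, the mean Jchain level was 14.41 at 4 weeks, 14.36 at 8 weeks, 14.64 at 12 weeks and 15.49 at 16 weeks, so most of the distance from 10 days had been covered on the 4-week arrays. Ighg1, the IgG1 heavy chain, rose from 10.72 ± 0.60 (SD, n = 7) to 12.86 ± 0.72 (SD, n = 5), a difference of 2.14 (adjusted p = 0.0021), but was not called with the version term (0.12, adjusted p = 0.959). Its 4 probes were all called higher. Ighm, the IgM heavy chain, was at 16.85 ± 0.15 (SD, n = 7) and 16.69 ± 0.26 (SD, n = 4) and was not called (-0.16, adjusted p = 0.651); after 75th percentile scaling it was called, at 0.90 (adjusted p = 0.0165).

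Genes of the secretory pathway in the plasma cell list rose as well. Xbp1, a transcription factor of secretory cells, rose by 2.81, Derl3, which removes misfolded proteins from the endoplasmic reticulum, by 2.96, and Fkbp11, a chaperone-like isomerase there, by 2.97, all holding with the version term (adjusted p = 0.0169, 0.00139 and 0.0406). The second probe of Fkbp11 was called lower, and the mean of its probes differed by -0.18. Xbp1, Derl3 and Fkbp11 are also strongly expressed in pancreatic acinar cells, whose markers moved with age on the same arrays; their part in these differences was not tested. The more lymphoid members Tnfrsf17, the survival receptor BCMA of plasma cells, and Mzb1, a plasma cell and marginal zone B cell chaperone, differed by 1.99 each (adjusted p = 8.94e-06 and 8.99e-06) and were not called with the version term (adjusted p = 0.272 and 0.231). In all, 5 of the 16 higher members kept their call with it.

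The B cell list had 13 of 29 members higher (44.8%, against 17.9% over all genes) and 4 lower (13.8%, against 18.3%). Its median was 0.68, and 3 of the higher calls held with the version term. Ms4a1, which encodes CD20, was not called (limma, adjusted p = 0.962), at 14.70 ± 0.21 (SD, n = 7) and 14.69 ± 0.35 (SD, n = 5). The mean of its probes was called higher (0.53, limma, adjusted p = 0.0236). Cr2, the complement receptor CD21 of follicular dendritic cells and mature B cells, had a lowest, median and highest level of 8.35, 9.39 and 10.62 at 10 days and 11.30, 11.45, 11.02, 11.50 and 10.95 at 20 weeks. The groups did not overlap, and the difference of 1.89 (adjusted p = 1.38e-06) held with the version term (2.35, adjusted p = 0.00153). Fcmr, the Fc receptor for IgM, rose by 2.09 and held with the version term (1.06, adjusted p = 0.0428) and with scan day (adjusted p = 0.0389). Of the T follicular helper and germinal centre list 8 of 19 were higher (42.1%) and 1 lower (5.26%), none of which held with the version term.

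Genes of early lymphocyte development moved the opposite way. In the list of precursor B cell and V(D)J recombination genes 9 of 17 members were lower and none higher (18.3% lower over all genes; list median -0.92), and 4 of the 9 kept the call with the version term. Vpreb1, part of the surrogate light chain of the pre-B cell receptor, fell from 9.62 ± 0.21 (SD, n = 6) to 8.05 ± 0.35 (SD, n = 5), a difference of -1.57 (adjusted p = 0.00048) that held with the version term (-2.18, adjusted p = 0.0188). At 20 weeks 3 of the 5 arrays had it well above background. Myb, a transcription factor of progenitors, fell by 2.18 without overlap (adjusted p = 1.6e-07), and missed the threshold with the version term (-1.32, adjusted p = 0.0601). Dntt, the terminal transferase that adds bases at V(D)J junctions, differed by -1.14 (adjusted p = 0.00145) and was not called with the version term (adjusted p = 0.588). Rag2, a subunit of the recombinase, differed by -0.12 and was not well above background on any 20-week array. It was tested through the 10-day arrays, at least 4 of which had it well above background. Cd34 and Erg, which also held with the version term (-2.61 and -2.09), are shared with blood endothelium; the mean of the Erg probes was not called (-0.43, adjusted p = 0.401).

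MHC class II genes were higher at 20 weeks: of 19 measured members of the list 14 were called higher (73.7%, against 17.9% over all genes). The proteases Ctss and Ctsl were the 2 called lower (10.5%, against 18.3%), and the list's median was 1.09. Cd74, the invariant chain that guides class II molecules to the endosome, had 12.92, 13.71 and 14.01 (lowest, median and highest) at 10 days and 17.12, 16.52, 16.53, 17.53 and 16.73 at 20 weeks. No array of one age reached the other. The difference of 3.23 ± 0.30 (SE), or 9.40-fold (adjusted p = 1.1e-09), held with the version term at 1.67 (adjusted p = 0.00881) and with scan day (adjusted p = 0.0118). The classical class II chains rose less: H2-Eb1 by 1.92 (13.23 ± 0.41, n = 7, to 15.15 ± 0.39, n = 4; SD), H2-Aa by 1.66 (12.82 ± 0.29, n = 7, to 14.47 ± 0.18, n = 4; SD) and H2-Ab1 by 1.28 (15.43 ± 0.17, n = 7, to 16.71 ± 0.35, n = 5; SD). For none of these 3 did the ages overlap, and for none did the call hold with the version term (0.52, 0.52 and 0.14, adjusted p = 0.601, 0.602 and 0.848). Cd74 was the only member of the list that kept its call in that model, in which the list's median was 0.02. The peptide editors H2-DMb2 and H2-DMa, which load class II molecules, rose by 2.46 and 1.66 and lost the call likewise. H2-Ea, the alpha chain of I-E that NOD mice do not make, was at 6.80 and 6.20, near the dimmest signals. It was not well above background on any 20-week array. As a tested gene it was so on at least 4 of the 10-day arrays.

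Class II promoters carry a conserved module read by the transactivator Ciita, which ends in a Y box close to the gene's start. The letters CTGATTGG of that box, searched on both strands in the 250 bases before the start (RefSeq, GRCm38.p6), were present for 3 of 13 list members with a promoter in the table (23.1%), for 4.43% of all 27025 genes and in 3.83% of all 32851 promoters. The 3 were H2-Aa, H2-Eb1 and H2-Oa, all called higher, as were 9 of the 13. The promoters of H2-Aa, the I-A alpha chain, and H2-Eb1, the I-E beta chain, are shown with the match in capitals to give the letters beside the levels.
H2-Aa (chr17:34287824-34288073, minus strand): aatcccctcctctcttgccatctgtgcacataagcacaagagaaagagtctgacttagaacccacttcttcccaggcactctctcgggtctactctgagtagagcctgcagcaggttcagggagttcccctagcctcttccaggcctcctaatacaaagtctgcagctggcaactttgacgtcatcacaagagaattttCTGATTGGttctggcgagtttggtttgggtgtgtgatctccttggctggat
H2-Eb1 (chr17:34305617-34305866, plus strand): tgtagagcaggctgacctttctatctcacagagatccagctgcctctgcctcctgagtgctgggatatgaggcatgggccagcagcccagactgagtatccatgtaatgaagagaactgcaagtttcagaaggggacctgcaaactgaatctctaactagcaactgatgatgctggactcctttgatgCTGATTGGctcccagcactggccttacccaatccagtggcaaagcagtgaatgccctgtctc

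In the MHC class I and peptide loading list 7 of 25 members were higher and 7 lower, 28% each against 17.9% and 18.3% over all genes. The median was -0.14 (0.17 after 75th percentile scaling), and 1 lower call held with the version term. The classical heavy chains H2-K1 and H2-D1 are given next. H2-K1 went from 19.06 ± 0.25 (SD, n = 7) to 17.51 ± 0.33 (SD, n = 5), a difference of -1.54 (adjusted p = 0.000131). Its probe was saturated on 1 array at 10 days, and the call was lost after 75th percentile scaling (-0.089, adjusted p = 0.793). H2-D1 went from 14.86 ± 0.71 (SD, n = 7) to 15.94 ± 0.44 (SD, n = 5), a difference of 1.09 (adjusted p = 0.00538). Neither was called with the version term (-1.30 and -0.25, adjusted p = 0.138 and 0.807). B2m, the light chain of class I molecules, differed by -2.40 for its brightest probe, while its other probe was not called, and lost the call with the version term (adjusted p = 0.658). Psme1, a subunit of the proteasome activator that generates class I peptides, rose by 1.77 and lost the call with the version term (adjusted p = 0.22). The class I heavy chain genes, H2-K1 and H2-D1 among them, are near-identical to each other, so the signals of their probes are uncertain as to the gene.

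Interferon-stimulated genes were higher at 20 weeks, 16 of 29 measured members of the type I list (55.2%, against 17.9% over all genes) and none lower (median 1.02). The median was 0.29 after normexp background correction, with 11 higher, and 0.27 with the version term, with none called. Isg15, a ubiquitin-like modifier, rose from 9.07 ± 0.46 (SD, n = 7) to 10.79 ± 0.54 (SD, n = 5) without overlap (1.72, adjusted p = 0.000185; 0.72 with the version term, adjusted p = 0.511). Oas1a, which senses double-stranded RNA, rose by 1.28 (adjusted p = 0.000407) and Mx1, an antiviral GTPase, by 1.30 (adjusted p = 0.00445), each with overlapping groups. Siglec1, the sialic acid receptor of sinus macrophages that is also interferon-induced, rose by 1.30 without overlap, though the mean of its probes was not called (0.53, adjusted p = 0.0822). Isg15 was not highest at 20 weeks: its mean was 11.69 ± 0.36 (SD, n = 6) at 4 weeks, 10.18 at 8 weeks, 10.02 at 12 weeks and 10.62 at 16 weeks. Of the interferon gamma response list 8 of 22 were higher (36.4%) and 3 lower (13.6%, against 18.3% over all genes), none of which held with the version term. Among them were the chemokines Cxcl9 (1.19) and Cxcl10 (-2.46), which share a receptor and differed in sign; Cxcl9 was not called after normexp correction either (0.52, adjusted p = 0.0663). Ifng itself went from 7.64 ± 0.35 (SD, n = 7) to 8.64 ± 0.45 (SD, n = 5), without overlap (1.01, adjusted p = 0.0126; 0.72 with the version term, adjusted p = 0.502). The Ifng call was also lost after normexp correction (0.11), after 75th percentile scaling (0.60), without 20 weeks replicate 5 (adjusted p = 0.0515) and without 3 arrays (adjusted p = 0.0839).

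Interferon-stimulated genes are read out through the interferon-stimulated response element, whose core is a pair of GAAA boxes. The letters GAAA, any 2 bases and GAAA again, on either strand within 250 bases before the start, were found for 9 of 21 type I list members in the promoter table (42.9%), for 5 of the 9 called higher and 4 of the 12 not called, for 3.46% of all 27025 genes and in 2.98% of all 32851 promoters. Promoters of Isg15, Ifit1 and Oas1a, which were called higher and hold 3, 2 and 2 matches, are shown as examples, with the matched letters in capitals (adjoining matches merge). Ifit1, which binds foreign RNA caps, rose by 1.08 (adjusted p = 0.00937; 1.47 with the version term, adjusted p = 0.123).
Isg15 (chr4:156200819-156201068, minus strand): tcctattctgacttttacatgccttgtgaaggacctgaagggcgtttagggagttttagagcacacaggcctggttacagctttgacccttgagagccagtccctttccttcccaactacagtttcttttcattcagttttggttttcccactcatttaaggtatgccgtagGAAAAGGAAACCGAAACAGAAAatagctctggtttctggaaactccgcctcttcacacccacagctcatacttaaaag
Ifit1 (chr19:34640639-34640888, plus strand): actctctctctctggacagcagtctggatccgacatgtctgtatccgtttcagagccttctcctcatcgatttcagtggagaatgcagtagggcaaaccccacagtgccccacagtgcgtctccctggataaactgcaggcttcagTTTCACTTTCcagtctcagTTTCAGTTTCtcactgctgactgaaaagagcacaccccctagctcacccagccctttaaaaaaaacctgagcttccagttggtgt
Oas1a (chr5:120907526-120907775, minus strand): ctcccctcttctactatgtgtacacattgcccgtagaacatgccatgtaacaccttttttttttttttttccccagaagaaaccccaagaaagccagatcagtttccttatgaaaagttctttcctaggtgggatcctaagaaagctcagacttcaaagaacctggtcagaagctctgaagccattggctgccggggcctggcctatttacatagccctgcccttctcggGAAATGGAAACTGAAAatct

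Macrophage and monocyte genes rose in 20 of 28 members (71.4%, against 17.9% over all genes) and fell in 2 (7.14%, against 18.3%). The list's median was 1.23, and 4 of the higher calls held with the version term. C1qa, a chain of the first complement component made by resident macrophages, had 10.29, 10.88 and 11.09 at 10 days (lowest, median and highest) and 14.22, 13.51, 12.89, 13.48 and 13.50 at 20 weeks. Its groups did not overlap, and the difference of 2.70 (adjusted p = 1.24e-07) missed the threshold with the version term (1.32, adjusted p = 0.1). Hmox1, the haem-degrading enzyme, rose by 2.81 and held (3.01, adjusted p = 0.0219). Cd68 and Csf1r, general macrophage markers, rose by 1.59 and 1.31 and were not called with the version term, Adgre1, which encodes F4/80, differed by 0.33 (adjusted p = 0.355), and the monocyte chemokine receptor Ccr2 fell by 2.0 (adjusted p = 1.5e-05; -1.04 with the version term, adjusted p = 0.275). Fcgr2b, the inhibitory Fc receptor of B cells, macrophages and follicular dendritic cells, had 9.07, 9.74 and 9.93 at 10 days against 12.40, 12.52, 12.34, 12.30 and 12.40 at 20 weeks. All 3 of its probes were called higher, and the difference of 2.71 (adjusted p = 5.04e-12) held with the version term (2.07, adjusted p = 2.79e-05) and with scan day (adjusted p = 0.000542). The complement list was higher in 9 of 22 members (40.9%) and lower in 2 (9.09%), with a median of 0.47. Cr2 and C1qc, another chain of C1q, held with the version term. The complement member with the largest difference was Cfd, complement factor D, a product of fat cells, at 10.69 ± 1.90 (SD, n = 7) and 14.93 ± 1.76 (SD, n = 5; 4.24, adjusted p = 0.000374), with overlapping groups and no call with the version term (adjusted p = 0.275). The adipocyte genes, looked at after their values were seen, were higher in 8 of 23 (34.8%) and lower in none, with no call kept with the version term. Their mean level per array was 9.42 to 10.14 at 10 days and 10.17 to 12.45 at 20 weeks. Of their defining markers Adipoq, adiponectin, rose by 3.35 (adjusted p = 0.00112) and was not kept with the version term, and Lep, leptin, was not called. The part of fat cell RNA in the complement values was not tested. Dendritic cell genes were higher in 10 of 25 (40%) and lower in 1 (4%), and none held with the version term. Cd207, the langerin of migratory dendritic cells, came closest at 1.85 (1.38 with the term, adjusted p = 0.0595).

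**Figure D2:**
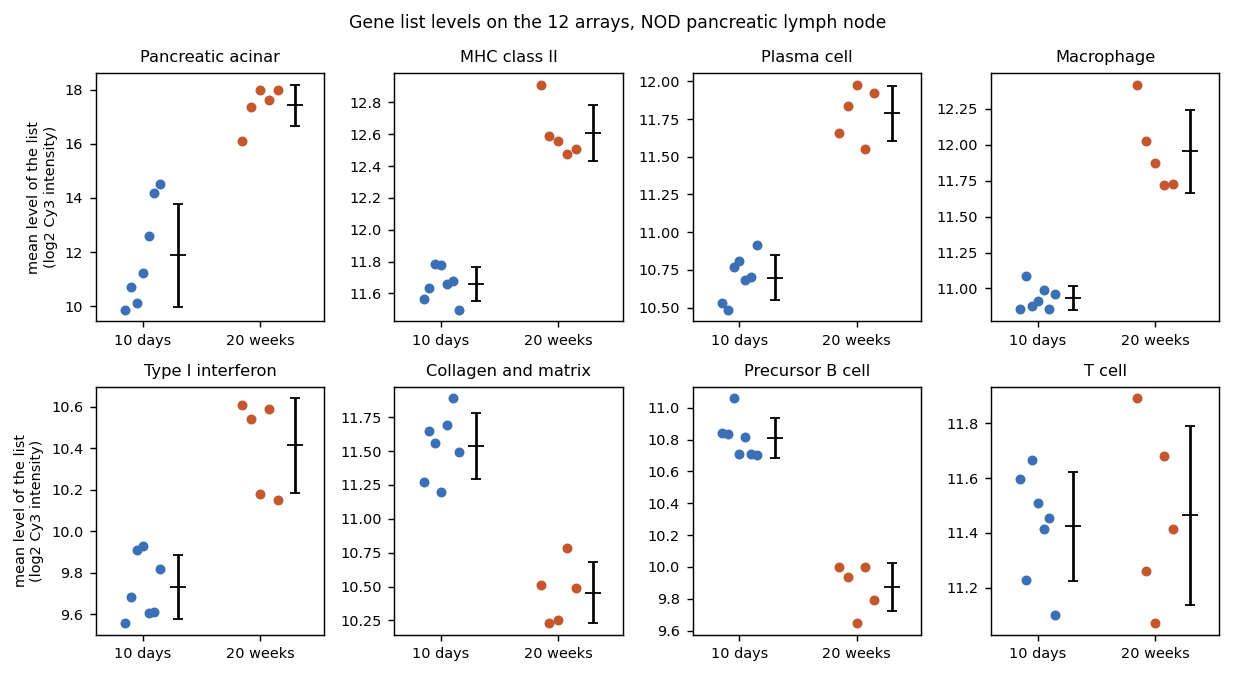
Mean log2 Cy3 level of 8 gene lists on each of the 12 arrays, 10 days on the left (7 arrays) and 20 weeks on the right (5 arrays), in replicate order, with mean and SD beside each group; axes differ between panels and do not start at 0. The ages do not overlap for 7 of the lists, whereas the T cell list spans 11.10 to 11.67 at 10 days and 11.07 to 11.89 at 20 weeks. The 8 were picked from 41 lists, and others not shown do not overlap either. Among those are the B cell, blood endothelial and muscle lists, the last at 9.15 to 9.91 and 8.88 to 9.09.

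Of the T cell genes 10 of 26 were higher (38.5%, against 17.9% over all genes) and 5 lower (19.2%, near the 18.3% over all genes). The list's median was 0.12. Cd3d, a CD3 chain of the T cell receptor complex, went from 13.31 ± 0.68 (SD, n = 7) to 14.67 ± 0.69 (SD, n = 5; adjusted p = 0.00856), and its difference was -0.09 with the version term. Cd3e (10.44 and 9.79), Cd4 (8.17 and 7.55) and Cd8a (11.97 and 11.63) were not called, with adjusted p of 0.369, 0.11 and 0.339 and overlapping groups. The SE of these differences were 0.54, 0.30 and 0.27. Cd3e was called lower on arrays of 1 scanner (-1.17, adjusted p = 0.0243) and with probes well above background on all 12 arrays (-0.53, adjusted p = 0.0289), and Cd4 after 75th percentile scaling (-0.83, adjusted p = 0.0281) and without 20 weeks replicate 1 (-0.83, adjusted p = 0.0371). At 20 weeks only 1 of 5 arrays had Cd4 well above background. Gata3, a transcription factor of T cells and of innate lymphoid cells, fell by 1.39 and held with the version term (-1.48, adjusted p = 0.0121). In bulk tissue fewer cells of a type and less RNA per cell cannot be told apart.

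Cytotoxic and natural killer genes were higher in 13 of 24 members (54.2%, against 17.9% over all genes) and lower in none (median 0.72), and none of the 13 held with the version term. Fasl, the death ligand, rose by 1.85 and Nkg7, a granule protein, by 1.56, both without overlap (adjusted p = 1.15e-05 and 3.79e-05; adjusted p = 0.258 and 0.57 with the version term). Gzmb, the main granzyme, was at 7.73 ± 0.60 (SD, n = 7) and 7.39 ± 1.42 (SD, n = 5) and was not called. In the regulatory T cell and checkpoint list 8 of 24 were higher (33.3%) and 4 lower (16.7%, near the 18.3% over all genes), none holding with the version term. Foxp3, the lineage factor of regulatory T cells, was at 7.27 ± 0.29 (SD, n = 7) and 7.97 ± 0.50 (SD, n = 5; 0.71, adjusted p = 0.108), and was called in the fit to the 2 ages only (adjusted p = 0.0275). Ctla4, an inhibitory receptor, rose by 0.94 (adjusted p = 0.00151; 0.57 after 75th percentile scaling, adjusted p = 0.0859), Pdcd1, which encodes PD-1, by 1.81 (adjusted p = 8.89e-06), and Il2, the T cell growth factor, differed by -0.42 (adjusted p = 0.311). Among lymphocyte homing genes 10 of 22 were higher (45.5%) and 6 lower (27.3%), and of these Ly6c1 (2.53) and Itgb1 (-1.69) held with the version term. Ly6c1 was not called with probes well above background on all 12 arrays (0.91, adjusted p = 0.0971).

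Connective tissue genes fell: 22 of 37 collagen and extracellular matrix genes were lower (59.5%, against 18.3% over all genes) and 3 higher (8.11%, against 17.9%). The median was -1.13, and 15 of the 22 held with the version term (6 with scan day). Col1a1, the main chain of fibrillar type I collagen, had 15.92, 16.47 and 17.07 at 10 days (6 arrays) and 12.07, 11.83, 11.09, 12.67 and 11.87 at 20 weeks. These values leave a gap of more than 3 between the lowest 10-day and the highest 20-week array. The difference of -4.59 ± 0.42 (SE) (adjusted p = 9.96e-10), was -4.70 with the version term (adjusted p = 0.000117) and held with scan day (adjusted p = 0.00862). At the ages between, Col1a1 was at 13.89 ± 0.63 (SD, n = 6) at 4 weeks, 14.08 ± 0.69 (SD, n = 4) at 8 weeks, 13.03 ± 1.15 (SD, n = 7) at 12 weeks and 12.68 ± 0.38 (SD, n = 6) at 16 weeks, and neighbouring ages in this row lay within their spread of each other. Col3a1 (-3.31), Col6a3 (-2.86), Lum, a proteoglycan that organises collagen fibrils (-3.5), and Sparc, a matricellular protein (-2.74), fell as well, all holding with the version term (-3.73, -3.14, -3.23 and -3.28). Spp1, osteopontin, rose from 8.5 ± 1.14 (SD, n = 7) to 11.94 ± 1.27 (SD, n = 5; adjusted p = 0.0103) and was not called with the version term (adjusted p = 0.147), and Dcn, another proteoglycan, differed by 0.11 (adjusted p = 0.83). Col26a1, a minor collagen, went from 11.41 ± 0.56 (SD, n = 7) to 7.00 ± 0.85 (SD, n = 5), where 2 of 5 arrays were well above background, and held with the version term (-5.05, adjusted p = 3.51e-07).

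Imprinted and juvenile growth genes were lower in 14 of 31 members (45.2%, against 18.3% over all genes) and higher in 3 (9.68%, against 17.9%). The median was -0.68, and 9 of the 14 held with the version term. Igf2, the fetal growth factor, had 12.13, 13.01 and 13.71 at 10 days and 8.63, 9.10, 9.09, 8.90 and 8.28 at 20 weeks. The groups were far apart, and the difference of -4.16 (17.9-fold lower, adjusted p = 1.52e-09) was -5.09 with the version term (adjusted p = 1.72e-05) and passed with scan day (adjusted p = 0.00714). Igf2 was already at 9.45 ± 0.62 (SD, n = 6) at 4 weeks, and from there to 20 weeks its mean stayed between 8.53 and 9.45. Mest, a paternally expressed gene of mesodermal tissue, fell by 4.73 and held (-4.42, adjusted p = 0.000562). H19, the non-coding RNA that neighbours Igf2, fell by 2.95, with 1 of 5 arrays at 20 weeks well above background, and was not called with the version term (-0.55, adjusted p = 0.649). Igf1, the postnatal counterpart of Igf2, rose by 1.42 (adjusted p = 0.000115; 1.17 with the version term, adjusted p = 0.144). Dlk1, an imprinted Notch-like ligand, was at 7.84 and 7.61 and was not called, except as the mean of its probes (-1.24, adjusted p = 0.00415).

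Blood endothelial genes fell in 11 of 29 members (37.9%) and rose in 4 (13.8%), with a median of -0.23, and 7 of the 11 held with the version term. Kdr, the VEGF receptor of growing vessels, had 12.95, 13.71 and 14.13 at 10 days and 10.68, 10.37, 10.62, 9.57 and 10.44 at 20 weeks. The ages did not overlap, and the difference of -3.31 (adjusted p = 4.02e-10) held with the version term (-2.74, adjusted p = 0.000677) and with scan day (adjusted p = 0.00865). Cd34 and Cdh5, an endothelial sialomucin and the vascular cadherin, fell by 2.44 and 2.24, and Nr2f2, the factor of venous identity, by 3.23; all held with the version term. High endothelial venule genes are given next. Glycam1, a secreted ligand of L-selectin, was at 16.13 ± 0.91 (SD, n = 7) and 15.09 ± 0.71 (SD, n = 5; adjusted p = 0.0361; -0.69 with the version term, adjusted p = 0.63), a call also lost after 75th percentile scaling (-0.35) and without any of 6 single arrays, 10 days replicates 1, 4 and 7 and 20 weeks replicates 2, 3 and 5 (adjusted p up to 0.116). Madcam1, the mucosal addressin, was at 10.21 ± 0.48 (SD, n = 7) and 9.94 ± 0.36 (SD, n = 5), and Chst4, a sulfotransferase of these venules, at 8.78 ± 0.46 (SD, n = 7) and 8.33 ± 0.41 (SD, n = 5), neither called (adjusted p = 0.44 and 0.282). Lymphatic endothelial genes were higher in 3 of 20 and lower in 4, shares near the 17.9% and 18.3% over all genes, with 1 call in each direction kept with the version term.

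Stromal and organising signals of the node had calls in both directions. The stromal list had 7 of 26 members higher (26.9%) and 9 lower (34.6%), of which 2 and 2 held with the version term. The list of lymphotoxin and NF-kB genes had 4 of 21 higher (19%) and 6 lower (28.6%), of which none held. Over all genes the shares were 17.9% and 18.3%, so the higher share of the lymphotoxin list was near that of all genes. Ccl19, a T zone chemokine, was at 17.64 ± 0.42 (SD, n = 7) and 16.70 ± 0.46 (SD, n = 5; -0.93, adjusted p = 0.0197), lost the call with the version term (adjusted p = 0.102), and differed by 0.23 after 75th percentile scaling, so its direction depends on the scaling; it was not called without 20 weeks replicate 3 (adjusted p = 0.0716). Ccl21c, a near-identical copy of the chemokine Ccl21a that binds the same receptor, differed by 1.09 (adjusted p = 0.00402) and by -0.18 with the version term. Cxcl13, the follicle chemokine, was at 13.20 ± 0.57 (SD, n = 7) and 13.55 ± 0.63 (SD, n = 5) and not called (adjusted p = 0.428), but was called higher with the version term (1.76, adjusted p = 0.0219). Ltb, which makes membrane lymphotoxin on lymphocytes, differed by -1.01 (adjusted p = 0.00367) and its receptor Ltbr by -1.63 (adjusted p = 4.24e-06), neither called with the version term (adjusted p = 0.0521 and 0.352). Ltb differed by -0.16 after 75th percentile scaling and was not called (adjusted p = 0.734). Over the chemokines and their receptors 22 of 54 were higher (40.7%) and 8 lower (14.8%), of which 2, both lower, held with the version term.

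Digestive enzyme genes of the exocrine pancreas rose on every 20-week array: of the 20 highest genes among those named, 17 were in the acinar list and the others were Nupr1, Klk1b4 and Reg3d. In the acinar list 28 of 33 members were higher (84.8%, against 17.9% over all genes) and none lower. The median was 5.80, and 23 of the 28 held with the version term but none with scan day. Probes of 14 of the 33 members were saturated on at least 1 of the 12 arrays, among those named Clps on 3 arrays at 20 weeks, Cpa1 on 2 and Zg16, Sycn, Try5 and Prss2 on 1 each, so their differences are lower bounds and their order is not settled. The mean level of the acinar list per array was 9.86 to 14.51 at 10 days and 16.11 to 18.00 at 20 weeks, so the ages did not overlap. Pnlip, pancreatic lipase, had 6.66, 7.66 and 15.34 (lowest, median and highest) at 10 days and 17.53, 19.03, 19.21, 19.34 and 19.13 at 20 weeks. The 10-day array with 15.34 was replicate 7, and its Pnlip level lay more than 5 above the next. Pnlip also varied widely at the ages between, from 9.69 to 19.25 at 4 weeks, 12.90 to 19.90 at 8 weeks, 9.36 to 17.84 at 12 weeks and 10.76 to 19.35 at 16 weeks. Gp2, the main zymogen granule membrane protein, rose by 8.16 and Cela1, an elastase, by 7.70, both holding with the version term. These genes mark another tissue than the labelled lymph node; the part of such RNA in the other differences was not tested.

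Of the islet genes 4 of 33 were higher (12.1%) and 8 lower (24.2%), against 17.9% and 18.3% over all genes, with a median of 0.01 (-0.20 after 75th percentile scaling), and none kept the call with the version term. Ins2 and Ins1, the insulin genes, rose by 4.52 and 3.83 (adjusted p = 0.00315 and 0.00128), and Gcg, glucagon, by 2.74 (adjusted p = 0.00736), none called with the version term (adjusted p = 0.134 and 0.0618 for the insulin genes). Ins2 had 7.82, 8.41 and 11.29 at 10 days and 14.86, 14.34, 9.42, 14.44 and 14.46 at 20 weeks. Replicate 3 at 20 weeks lay within the 10-day range for both insulin genes. Deaf1 and Aire, regulators of tissue antigen display in stromal cells, were at 10.00 ± 1.27 (SD, n = 6) and 13.38 ± 1.62 (SD, n = 5) and at 10.23 ± 0.49 (SD, n = 7) and 10.84 ± 0.30 (SD, n = 5). Deaf1 was called (3.38, adjusted p = 0.03; 7.70 with the version term, adjusted p = 0.0122) with overlapping groups, and this was 1 of its 3 probes. Its call was lost without any of 5 single arrays, 10 days replicates 1, 2 and 4 and 20 weeks replicates 3 and 5 (adjusted p = 0.0542 to 0.0794), without 3 arrays (adjusted p = 0.141) and with scan day (adjusted p = 0.664). Aire was not called (adjusted p = 0.127).

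Liver-secreted protein genes were lower in 5 of 21 members (23.8%, against 18.3% over all genes) and higher in 1 (median -0.41), and 2 of the lower calls and the higher call held with the version term. Alb, albumin, was at 12.70 ± 1.6 (SD, n = 6) and 8.64 ± 1.72 (SD, n = 5), a difference of -4.06 (adjusted p = 4e-05; -4.03 with the version term, adjusted p = 0.0469), and replicate 1 at 20 weeks, at 11.67, lay among the 10-day arrays. Ahsg, fetuin A, fell by 4.72 and held with the version term (-5.02, adjusted p = 0.0217). Afp, alpha-fetoprotein, was at 9.49 ± 1.92 (SD, n = 7) and 8.27 ± 0.50 (SD, n = 5) and was not called (adjusted p = 0.0813), except after 75th percentile scaling (-1.39) or without 10 days replicate 1, 5 or 6 (adjusted p = 0.0235 to 0.0462). The liver list's mean level per array was 8.46 to 11.75 at 10 days and 8.45 to 9.54 at 20 weeks.

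Csta2, Cstdc6, Stfa2 and Stfa2l1, stefin A protease inhibitors of neutrophils and epithelia, fell together. Csta2 had 12.18, 13.67 and 15.07 at 10 days and 7.05, 7.2, 6.83, 7.55 and 8.59 at 20 weeks, where 1 of 5 arrays was well above background. The difference of -6.19 (adjusted p = 1.22e-11) held with the version term (-4.78, adjusted p = 0.000108) and with scan day (adjusted p = 0.000625). Cstdc6 (-6.03) and Stfa2 (-3.68) fell too, both holding likewise. These genes are near-identical copies, so their probes are uncertain as to the gene. The neutrophil genes S100a8 and S100a9, calprotectin, were at 13.91 and 14.12 and at 16.73 and 16.84 and were not called (adjusted p = 0.801 and 0.903). In the neutrophil list 7 of 23 members were higher (30.4%), none kept with the version term, and 2 lower (8.7%), both kept. Cell cycle genes were lower in 17 of 52 (32.7%) and higher in 5 (9.62%), with a median of -0.22. Aurkb, a mitotic kinase, at -3.46 and Mcm3, a replication licensing factor, at -1.91 held with the version term. The 75th percentile scaling left 9 lower and 8 higher with a median of 0.04, so the direction of the cell cycle list depends on the scaling. Mki67, the proliferation marker, was at 14.04 ± 0.50 (SD, n = 7) and 14.67 ± 0.85 (SD, n = 5) and not called (adjusted p = 0.161), but was called after 75th percentile scaling (1.09, adjusted p = 0.0163) and without 20 weeks replicate 1 (adjusted p = 0.0357). Erythroid genes were higher in 8 of 26 (30.8%) and lower in 3 (11.5%), none kept with the version term, among them Hbb-y, the embryonic globin, at -3.00 (-0.86 with the version term, adjusted p = 0.599).

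**Figure D3:**
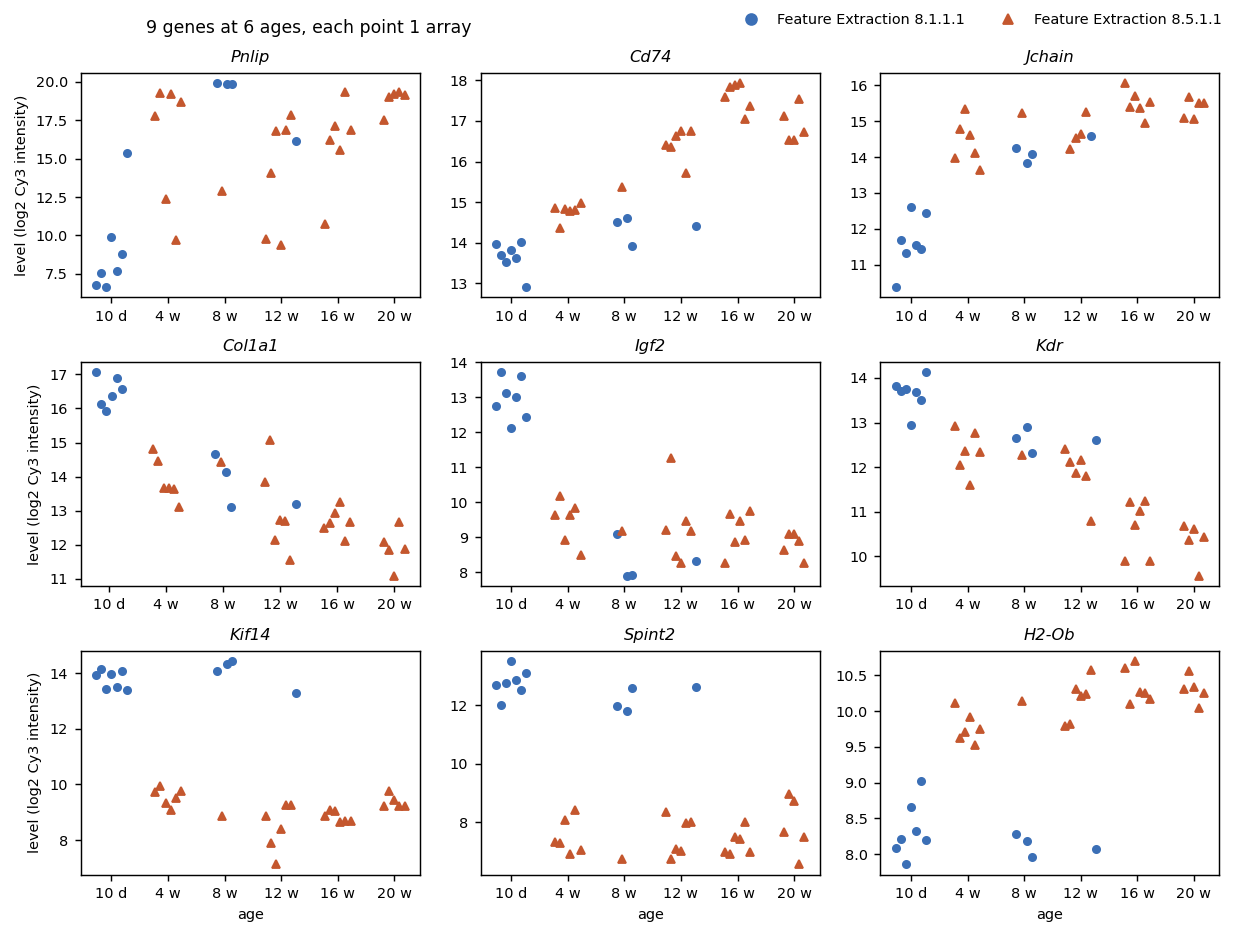
Log2 Cy3 level of 9 genes on all 35 arrays by age, 10 days to 20 weeks; circles are arrays read with Feature Extraction 8.1.1.1 and triangles those read with 8.5.1.1. Igf2 at 8 and 12 weeks is low with both versions, whereas Kif14 and Spint2 are high on every circle and low on every triangle at each age.

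Levels at the other ages were also divided between arrays of the older and newer software version, which differ in scan day too. For 535 of the 26728 genes tested, all 11 arrays read with Feature Extraction 8.1.1.1 lay above all 24 read with 8.5.1.1, whatever the age. Of these 531 were called lower (10.8% of the lower genes). For 316 genes the 8.1.1.1 arrays lay below, and 313 were called higher (6.54% of the higher genes). All 10-day arrays had the older version and all 20-week arrays the newer, so the ages cannot overlap for such genes. That nearly all of them were called follows from the separation and is not a further result. At 8 weeks, where 3 arrays had the older version and 1 the newer, 68.5% of the genes called lower were higher on the older version and 78.7% of those called higher were lower on it. Among the 20 lowest genes 18 were higher on the older version at 8 weeks, all except Col1a1 and Col26a1. The matching shares over all genes tested were not computed, so how far these 8-week shares differ from those of any gene is not known. Kif14, a mitotic kinesin, was at 13.78 ± 0.33 (SD, n = 7) at 10 days and 9.37 ± 0.23 (SD, n = 5) at 20 weeks. At 8 weeks it was at 14.28 on average over 3 arrays of the older version and at 8.88 on the array of the newer. Spint2, a protease inhibitor of epithelia, had 12.79 and 7.88 at the 2 ages and 12.13 and 6.72 at 8 weeks. With the version term the differences of Kif14 and Spint2 were 0.68 and 0.34 (adjusted p = 0.418 and 0.81), and those of Bcorl1 and Dpf1, chromatin regulators, were 0.36 and 1.85. The olfactory receptor genes Olfr1153 and Olfr1410 exceeded background clearly on 1 of the 5 20-week arrays each, so their differences of -5.78 and -5.63 are taken against signals near background; with the term they were -1.12 and -0.42. H2-Ob, Cd72, Tgfb1, Gcnt1, Aplnr and H19 were also separated by version over all 35 arrays, and so was Fcgr2b, which nonetheless kept its call with the term. Other probes of a gene could disagree: of 5002 genes with more than 1 probe and any called, 590 (11.8%) had probes called in both directions.

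**Figure D4:**
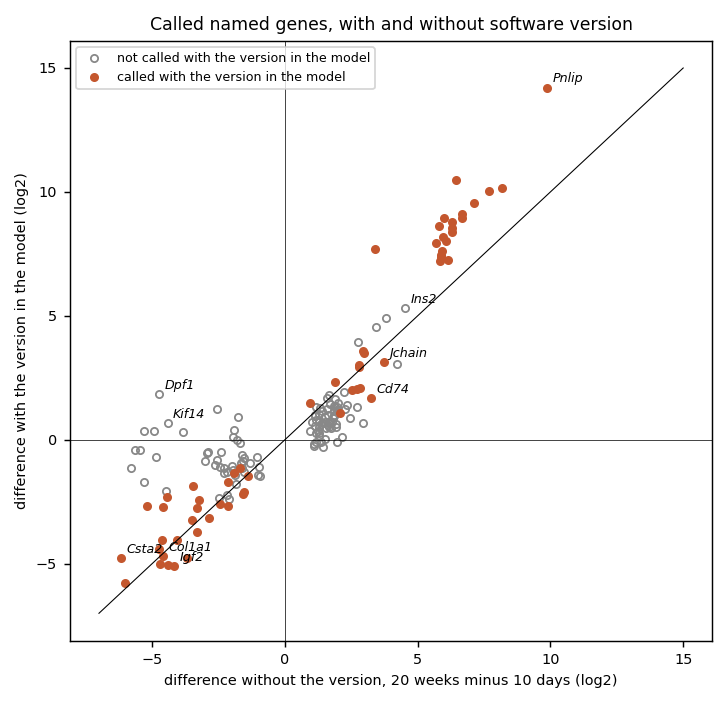
Difference in the NOD channel for the 169 called named genes without (horizontal) and with (vertical) the Feature Extraction version in the limma model, log2 scale; filled points are called in both models (60 genes), open points only without the version, and the diagonal marks equality. Pnlip lies above the diagonal at 9.88 and 14.21, Col1a1 close to it at -4.59 and -4.70, and Kif14 and Dpf1 lie above 0 on the vertical axis.

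The Cy5 channel of the same arrays, which holds NOD.B10 RNA, shares arrays, software version and dye normalisation with the NOD channel, so its values are set beside and not used as support. Its median difference between the 20-week and the 10-day arrays was 3.29 for acinar genes, 1.43 for MHC class II genes, 1.05 for plasma cell genes, -1.10 for collagen and matrix genes and -0.69 for precursor B cell genes. Lists of the other sign included neutrophil genes (-1.42 against 0.65 in the NOD channel) and erythroid genes (-1.08 against 0.60). They also included MHC class I genes (0.47 against -0.14) and stromal genes (0.29 against -0.06). For liver-secreted protein genes the medians were -5.05 and -0.41. The difference between the channels was not tested.

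As a check of the labelled sex, Xist, the RNA that silences an X chromosome in females, was well above background on all 12 arrays, at 15.04 ± 0.35 (SD, n = 7) and 13.71 ± 0.40 (SD, n = 5). Of the Y-linked genes, Eif2s3y, Kdm5d and Ddx3y had mean levels of 6.15 to 7.72 and were not well above background on any 20-week array. Uty was so on 1. All were tested, which required at least 4 of the 12 arrays well above background. Eif2s3y, Kdm5d and Ddx3y were therefore so on at least 4 of the 10-day arrays, where 80.3% to 93.5% of all probes were. The Y-linked genes thus give no clear check of the sex at 10 days.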

How the data were processed

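RNA of NOD pancreatic lymph nodes (Cy3) was hybridised with NOD.B10 RNA (Cy5), without dye swap, to 35 arrays. The deposited Cy3 intensity had, per the file headers, its background removed and a spatial trend corrected, then a linear and lowess dye normalisation, all in the authors' scanner software. That step used both channels, so the Cy3 values are not independent of Cy5. The submitters' processing notes name Agilent Feature Extraction 8.5, while the headers show 8.1.1.1 for 11 and 8.5.1.1 for 24 of the arrays. The part of this difference in the values was not tested beyond the model with a version term.

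From these intensities log2 values were quantile normalised over all arrays, after control and outlier spots were left out. Probes well above background on at least 4 of the 12 arrays were kept, 38237 of 41174, and the brightest probe stood for a gene. Symbols came from array accessions through RefSeq (GRCm38.p6), and 9662 probes had no match there. Age group means were fitted in limma 3.58.1 (R 4.3.3) with Benjamini-Hochberg adjustment. The procedure was tested on simulated data with independent random noise and no version or scan day effect, so that test cannot tell how these bear on the calls. A sample missing at a gene was left out of its fit, as n shows. Precision is limited by how many arrays there are.

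The genes named were the 20 highest and 20 lowest called genes with a symbol and no overlap, up to 5 called members of each list described, and a fixed set of lymphocyte, stromal, islet and growth genes. Members and lists were chosen with earlier results of these data known. Of the fixed set, Ccl21a was represented by its copy Ccl21c and Igha was not analysed here; some others are not reported here. Alternatives covered background correction, scaling, filters, probes, version, scanner, scan day, the replicate block and leaving out each array. The comparison of 1 scanner and that without 3 arrays were added after seeing the data. Replicate numbers did not pair the arrays.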

Additional observations from a re-analysis of the deposited data

Results flagged for a closer look

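Within each age, 282 groups of values (the genes named and the lists) were searched for an array far from the others, and 26 stood out; chance gives about 1 in 20 groups. Replicate 7 at 10 days held 5 of them: Pnlip was at 15.34 (others 6.66 to 9.91), Gp2 at 10.87 (6.62 to 7.90), Cd3d at 11.87 (13.17 to 13.90), H2-D1 at 13.40 (14.74 to 15.58) and Ltb at 16.03 (16.65 to 17.01). On that array Pnlip and Gp2 were high and Cd3d, H2-D1 and Ltb low.

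Replicate 1 at 20 weeks held 9. Its Alb level was 11.67 (others 7.42 to 8.17) and its liver list level 9.54 (8.45 to 8.62). Its Ighg1 level was 14.11 (12.30 to 12.76) and its MHC class II list level 12.91 (12.47 to 12.59), and acinar genes were lower there: Pnlip at 17.53 (19.03 to 19.34), Prss2 at 17.87 (19.18 to 19.50), Sycn at 18.47 (19.28 to 19.57), Try5 at 18.39 (19.44 to 19.85) and Zg16 at 17.57 (18.99 to 19.44). Replicate 3 at 20 weeks was low in both insulin genes, Ins1 at 9.16 (12.22 to 12.94) and Ins2 at 9.42 (14.34 to 14.86).

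Replicate 4 at 20 weeks was low in the endothelial genes Kdr, at 9.57 (10.37 to 10.68), and Nr2f2, at 7.07 (10.53 to 10.96), and high in the adipocyte genes, at 12.45 (10.17 to 10.77). Replicate 5 at 20 weeks was low in Ighm, at 16.30 (16.79 to 16.87). At 10 days, Cd34 was at 15.52 on replicate 5 (all others at or above 14.71 and lower than it) and Fcgr2b at 9.07 on replicate 6 (9.60 to 9.93). Among list levels at 10 days, the MHC class I list was at 13.80 on replicate 1 (13.17 to 13.43), the precursor B cell list at 11.06 on replicate 3 (10.70 to 10.84), the imprinted list at 9.55 on replicate 4 (9.77 to 9.93) and the islet list at 8.80 on replicate 6 (8.18 to 8.39).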

How the results depend on the processing

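With the Feature Extraction version in the model, 1145 genes were called, 1100 with a difference of at least 1, as were 103 list members (494 without it) and 61 named genes (169 without it). With scan day as a random block these counts were 177, 177, 18 and 22. Probes well above background on all 12 arrays gave 6147, 3102 and, of named genes, 111, from 10738 genes tested. Normexp background correction left 1755 genes with a difference of at least 1 (6216 before). Leaving out each array gave 8573 to 9650 genes called, 5826 to 6682 of at least 1, 451 to 484 list members and 164 to 171 named genes. Same-numbered arrays of the 2 ages did not deviate together (correlations 0.014 to 0.0843), and the replicate block gave 8837 genes called, 166 of the named. After 75th percentile scaling Ccl19 differed by 0.23 and Ighm by 0.90, and 347 list members were higher and 143 lower, against 309 and 185. With the mean of all probes Fcrl1 differed by 0.077, Prox1 by 0.029, Bach2 by -0.44, Fkbp11 by -0.18 and Ms4a1 by 0.53; Gcnt1 differed by 1.40 among probes well above background on all 12 arrays. With the version term the sign turned for Bcorl1 (0.36), Spint2 (0.34), Dpf1 (1.85), Kif14 (0.68), H2-Ob (-0.075), Fcrl1 (0.40), Cd3d (-0.087), Mybl1 (-0.083), Ccl17 (-0.29), Gcnt1 (0.32), Ccl21c (-0.18), Pyy (1.25), Nkx6-1 (0.10), Ikzf4 (0.92) and H2-D1 (-0.25). The cause was not tested. Signal over background limits the lower genes: 944 were not well above background on any 20-week array.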
